A study of Mus musculus with 10 samples.

Results

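The 10 genes described here, Mef2a, Arntl, Rps3, Emc10, Pik3c2a, Btbd10, Plekhb1, Chsy1, Tmem159 and 2410002F23Rik, lie on mouse chromosome 7 and were chosen by their measured knockout and wild-type values: a probe set of theirs, which covers about 1 exon, had differed between neuropsin-/- and wild-type amygdala. Every probe set annotated to exactly 1 of these symbols was taken (Emc10 through the older symbol that the reference gene table lists for it), which gave 198 probe sets of 318760 named in this way, and 10 genes of 22103. The arrays came from neuropsin-/- mice, a line crossed back for 12 generations to C57BL/6, and from wild-type C57BL/6 mice, all of them 3 months old. Neuropsin is the secreted serine protease encoded by Klk8, itself a chromosome 7 gene. Each genotype had 5 arrays, each hybridised with RNA of 3 pooled animals (15 animals per genotype), from amygdala dissected out of a coronal brain slice. The labels do not give the deleted exons.

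The choice of genes rests on the knockout against wild-type contrast itself, so all values of these 10 genes in that contrast are descriptions, and no p is given for them. Values are log2 expression values after RMA, in which a difference of 1 is a doubling or halving of signal, and differences are knockout minus wild type. Means are given ± SD over 5 arrays, and SE is the standard error of a limma fit. For a probe set the fit was over all probe sets above the intensity filter given below, and for a gene over all gene levels. A probe set was called outlying when its difference lay more than 1 from the median difference of the other probe sets of its gene and when its gap to those probe sets, taken array by array, did not overlap between the 5 knockout and the 5 wild-type arrays. The leading probe set of a gene is the one farthest from that median. Only probe sets whose mean exceeded 4.94, the median of all probe sets, were used for this, which kept 175 of the 198. The 23 below it are counted where they matter.

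Exon arrays measure a gene at many places along its transcripts, so a difference of the whole transcript moves most probe sets of a gene together, whereas a difference in 1 exon, or in how well its probes take up the RNA, moves that probe set alone. The genes have unrelated tasks. Mef2a is a MADS-box transcription factor of neurons and muscle, and Arntl (also called Bmal1) is the clock transcription factor that pairs with Clock. Rps3 is a protein of the small ribosomal subunit, and Emc10 belongs to the complex that inserts membrane proteins into the endoplasmic reticulum. Pik3c2a is a class II phosphoinositide 3-kinase of endocytosis, Btbd10 binds the kinase Akt, and Plekhb1 (evectin-1) is a membrane protein with a pleckstrin homology domain. Chsy1 builds the chondroitin sulfate chains of the extracellular matrix, and Tmem159 works with seipin in forming lipid droplets. The tables used here give no role for 2410002F23Rik.

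A gene with several transcription starts has exons that only some of its transcripts carry, so the start windows RefSeq lists for these genes are given first. RefSeq (GRCm38.p6) held windows for 9 of the 10 genes, 250 bases before to 50 after a start, and listed more than 1 for 3 of them. Those of Emc10 start 95 bases apart and those of Arntl 46, while those of Plekhb1 lie 5429 bases apart and share no base. The Plekhb1 windows are shown because they open different first exons, with the 50 bases after the start in capitals. They are chr7:100662345-100662644 and chr7:100656916-100657215, both on the minus strand.
Plekhb1 start window 1: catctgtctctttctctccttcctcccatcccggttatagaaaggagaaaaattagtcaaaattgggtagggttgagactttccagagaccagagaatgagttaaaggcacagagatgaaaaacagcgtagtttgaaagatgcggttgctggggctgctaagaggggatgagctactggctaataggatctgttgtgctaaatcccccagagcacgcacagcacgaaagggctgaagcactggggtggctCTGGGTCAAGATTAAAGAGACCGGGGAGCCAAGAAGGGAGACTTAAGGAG
Plekhb1 start window 2: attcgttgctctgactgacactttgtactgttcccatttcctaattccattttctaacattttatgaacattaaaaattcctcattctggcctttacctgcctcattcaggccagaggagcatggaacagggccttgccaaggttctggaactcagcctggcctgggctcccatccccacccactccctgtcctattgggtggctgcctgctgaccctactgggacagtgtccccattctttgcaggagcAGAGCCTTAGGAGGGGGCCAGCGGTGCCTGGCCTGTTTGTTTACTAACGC
The Arntl window at chr7:113207261-113207560, plus strand, is shown because it holds the letters AGGTCA, the core of the element through which Ror and Rev-erb receptors act on clock genes, in capitals, from base 32 after the start.
Arntl start window 2: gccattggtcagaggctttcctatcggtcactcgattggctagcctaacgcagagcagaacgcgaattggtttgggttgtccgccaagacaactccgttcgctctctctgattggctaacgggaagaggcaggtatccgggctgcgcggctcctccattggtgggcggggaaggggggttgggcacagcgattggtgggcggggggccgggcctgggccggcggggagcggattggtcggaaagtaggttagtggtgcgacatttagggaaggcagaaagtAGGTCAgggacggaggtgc
Searched on both strands, AGGTCA was in 16.3% of the 32851 windows of the table and in 2 of the 12 windows of these genes, the other being that of Rps3. Which exon or start a probe set of the array covers is not given in the sources used here, so no probe set is placed on these sequences.

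Pairs of arrays had correlations of gene levels between 0.958 and 0.987 (across genes), and none were identical. Wild-type arrays 4 and 5 stood apart on the first component of the gene levels, at 20.5 and 23.5, against -14.2 to 7.45 on the other 8 arrays. Knockout arrays 4 and 5 were likewise the highest of their genotype, at 7.45 and 3.14. Arrays 1 and 3 were the lowest in both genotypes. The mean of the 9 Klk8 probe sets was 4.60 to 5.25 on the knockout arrays and 4.78 to 5.52 on the wild-type arrays, a difference of -0.15 with overlapping groups, and probe sets outside the deletion would not test the labels. Over all features, 0.00239% of probe sets and 0.0244% of genes passed an adjusted p of 0.05 by limma, and 1.69% of genes did so for exon usage by diffSplice. Neuron markers had a mean level of 10.03 to 10.18 in knockout and 10.01 to 10.21 in wild type. Lateral and basolateral amygdala markers had one of 8.12 to 8.32 and 7.93 to 8.23 (none of 4 lower in the knockout). Central and medial amygdala markers lay at 7.60 to 7.76 in knockout and 7.72 to 8.04 in wild type (all 4 lower). Striatum and intercalated cell markers lay at 7.57 to 8.13 in knockout and 7.91 to 8.27 in wild type (all 5 lower). Hypothalamus markers lay at 5.60 to 5.94 in knockout and at 6.15 to 7.48 in wild type (4 of 5 markers measured, all 4 lower), and blood markers at 6.58 to 6.95 in knockout and 7.27 to 8.27 in wild type (2 of 3 measured). Of the blood markers, Hbb-b1, itself on chromosome 7, differed by -1.81, and Alas2 averaged 6.02 ± 0.15 in knockout and 6.11 ± 0.33 in wild type. In tissue, fewer cells of a type and less RNA per cell cannot be told apart. The part of these markers in the results below was not tested.

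Among the 175 probe sets of these genes 15 were outlying, 12 lower and 3 higher in the knockout, and they lay in 9 of the 10 genes. The rule called 57 of 238335 named probe sets in all (0.0239%), 0.013% below and 0.0109% above the rest of their gene. The genes had been picked for such probe sets, so nothing is read from the excess. Leaving out wild-type arrays 4 and 5, or knockout array 2, gave the same 15 probe sets, while the count over all named probe sets came to 259 (0.109%) without both wild-type arrays and 102 (0.0428%) without the knockout array. Groups that do not overlap stay so when arrays are dropped. In 6 genes a lone probe set was outlying, in Arntl and 2410002F23Rik a pair, and in Emc10 5. In Tmem159 none was, although it had been grouped with the others. Closest to the limit inside it was a probe set of Emc10, 1.30 below the median of the gene's others, and closest outside it were a probe set of Chsy1, 0.89 above, and one of Tmem159, 0.89 below.

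**Figure D1:**
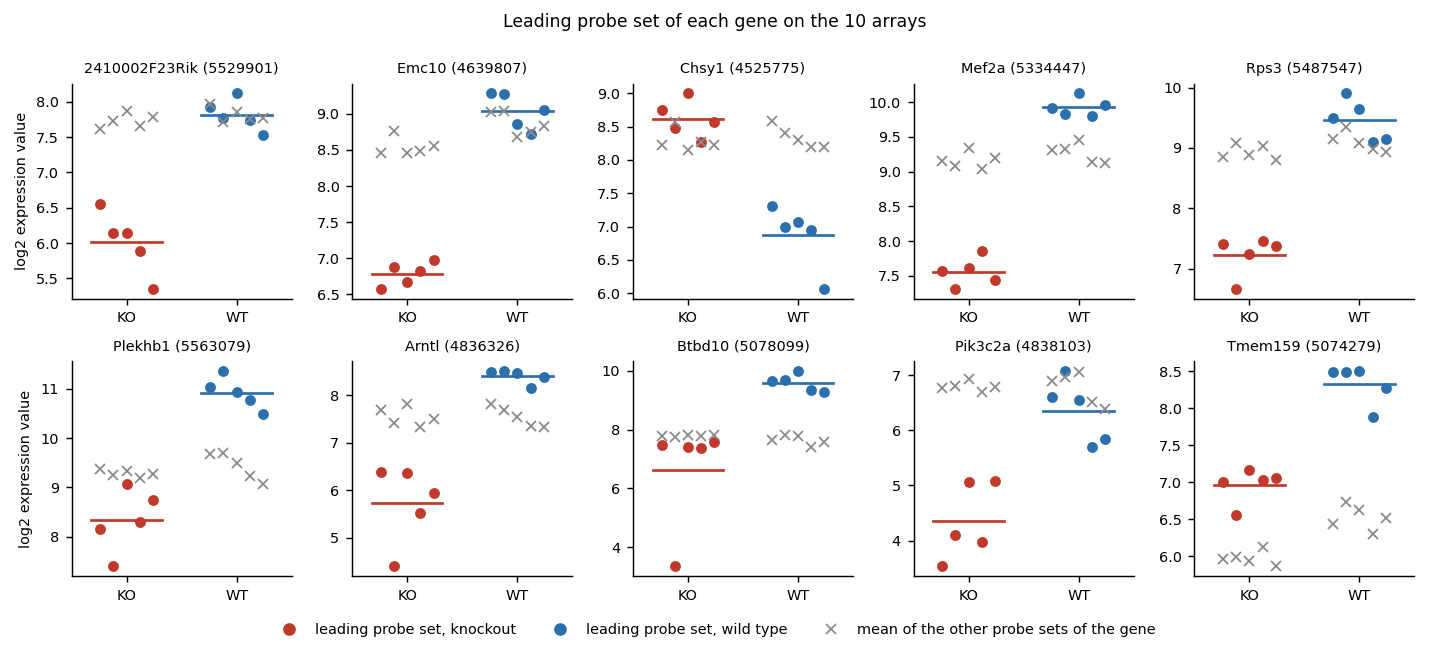
Log2 expression values (vertical axis, a separate scale for each gene) of the leading probe set of each gene on the 5 knockout and 5 wild-type arrays (filled points, lines at the mean), with the mean of the gene's other probe sets on the same array (grey crosses). In all 10 genes the filled points of the genotypes do not overlap, while the crosses overlap in every gene except Tmem159. Levels of different probe sets are not comparable with each other, only their change between genotypes.

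Mef2a differed at a single probe set. That probe set, 5334447, read 7.57, 7.31, 7.61, 7.86 and 7.44 on the knockout arrays, against 9.91, 9.83, 10.13, 9.80 and 9.97 on the wild-type arrays. Every knockout array was thus far below every wild-type array, with a difference of -2.37 (SE 0.15), or 5.16-fold. The remaining 20 probe sets of Mef2a above the filter differed by -0.55 to 0.17, with a median of -0.09, and in 19 of them the genotypes overlapped. The exception, 4895350, averaged 9.50 ± 0.18 in knockout and 10.04 ± 0.17 in wild type. Without the leading probe set the gene stood at 9.16 ± 0.11 in knockout and 9.27 ± 0.14 in wild type, with overlapping arrays. The gap of the leading probe set to the median of the rest differed by -2.15 between genotypes (SD 0.32 in knockout and 0.16 in wild type).

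In Arntl a pair of probe sets stood out and the rest of the gene did not follow. Probe set 4836326 read 6.39, 4.40, 6.36, 5.52 and 5.95 on the knockout arrays, against 8.49, 8.52, 8.47, 8.15 and 8.38 on the wild-type arrays. The wild-type arrays were close together and the knockout arrays spread over about 2 units, with array 2 the lowest, for a difference of -2.68 (SE 0.32), or 6.40-fold. Probe set 5512153 read 7.67, 6.78, 8.02, 7.27 and 7.31 in knockout, against 9.31, 9.29, 9.10, 8.75 and 8.54 in wild type, a difference of -1.59 (SE 0.24). Array 2 was again the lowest of the knockout arrays, and the genotypes did not overlap. Of the 22 Arntl probe sets above the filter 14 were higher in the knockout, and without both outlying probe sets the gene differed by 0.08. The gene level, all 22 probe sets together, was 7.47 ± 0.22 in knockout and 7.59 ± 0.21 in wild type.

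Genes that work with Mef2a and Arntl were measured at the gene level and tested with limma over all 16367 genes. None of the 7 genes of the MEF2 family and class IIa histone deacetylases passed an adjusted p of 0.05. Of the 7, 1 had an unadjusted p under 0.05, against 6.98% of all genes. In this list 3 were lower and 4 higher, with a median difference of 0.03, against -0.002 over all genes. Mef2c, the family member known from excitatory neurons, averaged 9.32 ± 0.09 in knockout and 9.12 ± 0.15 in wild type, a difference of 0.20 (SE 0.09, limma adjusted p = 0.693). Mef2b was at -0.11 and the deacetylase Hdac4 at 0.06. None of the 21 measured clock genes passed either (3 with an unadjusted p under 0.05, or 14.3%, against 6.98% of all genes). Of the 21, 18 were higher and 3 lower, with a median of 0.06, while 50.7% of all genes were lower. Genes of a list share the arrays and are not independent, so such counts by direction are descriptions. Per1, a repressor of the Arntl and Clock pair, averaged 7.99 ± 0.10 in knockout and 7.75 ± 0.09 in wild type, a difference of 0.23 (SE 0.07, limma adjusted p = 0.644). The repressor Ciart was at 0.33 (SE 0.11, limma adjusted p = 0.677) and Per2 at 0.14 (SE 0.07, limma adjusted p = 0.711). Of the receptors that read AGGTCA elements, Rora was at 0.04, Rorb at 0.06, Nr1d1 at 0.08 and Nr1d2 at 0.04, each with an adjusted p of 0.884 or more (these 4 were chosen for the element after their values were seen).

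**Figure D2:**
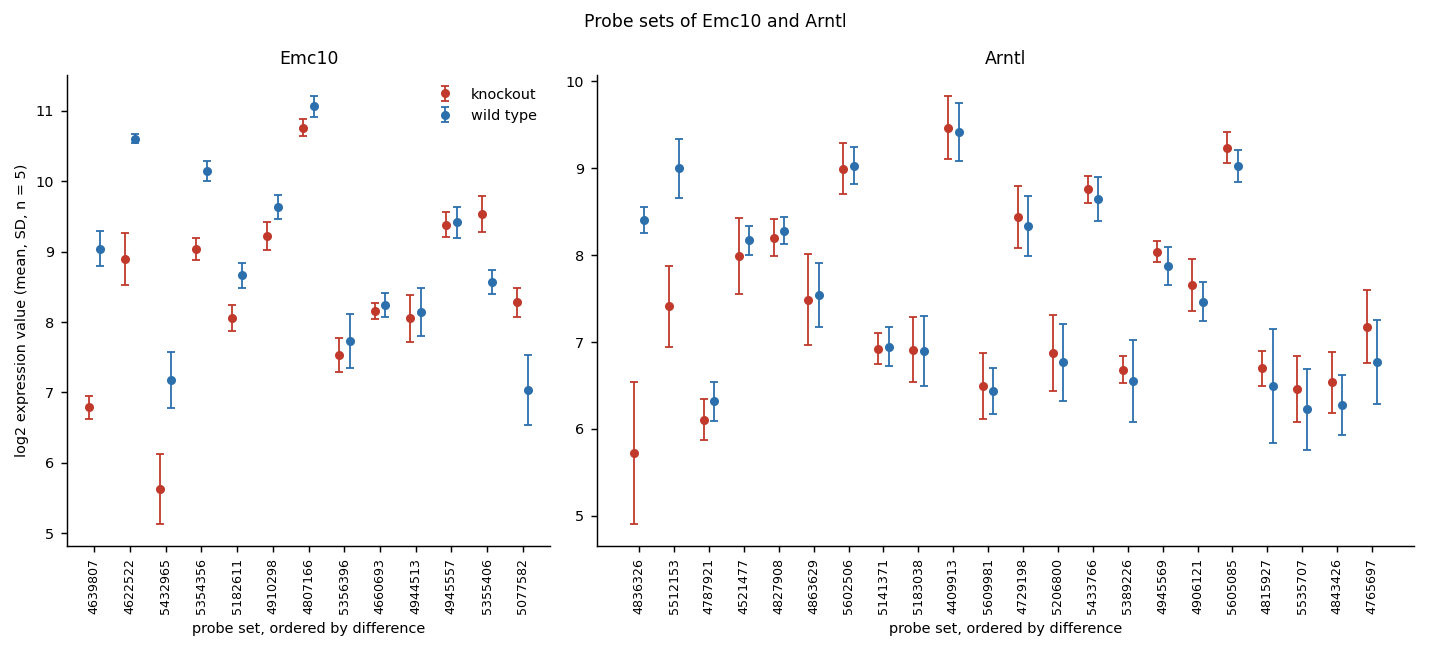
Mean log2 expression value (vertical axis, bars are SD over 5 arrays) of every probe set above the intensity filter of Emc10 (13) and Arntl (22), in knockout (red, left of each pair) and wild type (blue), ordered from the most negative to the most positive difference. In Emc10 11 differences grade from -2.25 to -0.03, and 2 stand apart from them at 0.96 and 1.25. In Arntl 2 lower probe sets are separate from the rest.

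Emc10 differed in many places and in both directions. Probe set 4639807 read 6.58, 6.88, 6.68, 6.82 and 6.98 on the knockout arrays, against 9.28, 9.27, 8.85, 8.73 and 9.06 on the wild-type arrays, a difference of -2.25 (SE 0.16), or 4.77-fold. Probe sets 4622522 and 5432965 were lower by -1.71 (SE 0.18) and -1.55 (SE 0.26). In the opposite direction, 5077582 read 8.03, 8.46, 8.08, 8.35 and 8.47 in knockout, against 7.26, 7.54, 6.94, 7.18 and 6.22 in wild type, a difference of 1.25 (SE 0.23). Probe set 5355406 averaged 9.53 ± 0.26 in knockout and 8.57 ± 0.17 in wild type, a difference of 0.96 (SE 0.16). Among all named probe sets 1.06% had genotypes that did not overlap, 0.355% lower and 0.706% higher. In Emc10 this held for 8 of 13, 6 lower and 2 higher. The gene level was 8.41 ± 0.13 in knockout and 8.88 ± 0.17 in wild type without overlap, but without the 5 outlying probe sets the difference was -0.36 and the genotypes overlapped. Emc10 was thus the only one of the 10 genes with outlying probe sets on both sides. Of the other subunits of the complex 7 of 8 were measured and none passed by limma, nor had any an unadjusted p under 0.05. Their differences ran from -0.09 (Emc8) to 0.17 (Emc9), with a median of 0.01, and Emc6 was at -0.04.

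Rps3 differed at 1 of 9 probe sets above the filter. Probe set 5487547 read 7.41, 6.66, 7.23, 7.45 and 7.38 on the knockout arrays, against 9.50, 9.90, 9.64, 9.10 and 9.14 on the wild-type arrays, a difference of -2.23 (SE 0.21), or 4.69-fold. Knockout array 2 was the lowest of its group and no array overlapped with the other genotype. The other 8 differed by -0.68 to 0.02, with a median of -0.10, and overlapped throughout. The gene level, at 8.74 ± 0.09 in knockout and 9.14 ± 0.18 in wild type, did not overlap, but without the leading probe set it stood at 8.93 ± 0.12 in knockout and 9.10 ± 0.16 in wild type with overlapping arrays. Ribosomal protein genes have many near-identical pseudogene copies, so the reads of Rps3 probe sets are uncertain as to copy. Of 31 other proteins of the small ribosomal subunit 17 were measured, and none passed by limma (2 with an unadjusted p under 0.05, or 11.8%, against 6.98% of all genes). Of the 17, 16 were lower and 1 higher, with a median of -0.08, while 50.7% of all genes were lower. These genes share the arrays and are not independent, so this count by direction is a description. Rps21 averaged 7.77 ± 0.18 in knockout and 8.08 ± 0.26 in wild type, a difference of -0.30 (SE 0.12, limma adjusted p = 0.693), and Rps18 was at -0.25 (SE 0.10, limma adjusted p = 0.693) and Rps16 at -0.22 (SE 0.18).

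Arntl and Btbd10 are next to each other in the order of measured genes and on opposite strands, and both carried an outlying probe set. Btbd10 probe set 5078099 read 7.47, 3.35, 7.40, 7.36 and 7.57 on the knockout arrays, against 9.66, 9.69, 9.99, 9.35 and 9.27 on the wild-type arrays. The difference was -2.96 (SE 0.66). Knockout array 2 was far below the rest of its group, and the other 4 knockout arrays were also below every wild-type array. Without that array the gap of this probe set to the rest of the gene differed by -2.15 between genotypes, against -2.97 with it. The other 16 probe sets of Btbd10 had a median difference of 0.13 and ranged from -0.37 to 0.78. Probe set 4712801 made the upper end, at 7.29 ± 0.08 in knockout and 6.51 ± 0.31 in wild type without overlap, and was not outlying. Akt and its regulators, 7 of 8 genes measured, had a median of 0.03 and no gene that passed by limma or had an unadjusted p under 0.05. Kctd20, the paralogue of Btbd10, was at 0.11 (SE 0.07, limma adjusted p = 0.749), and the Akt phosphatases Phlpp1 and Phlpp2 were at -0.12 and 0.10.

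Pik3c2a had the most probe sets, 39 above the filter, and 1 of them was outlying. Probe set 4838103 read 3.53, 4.11, 5.06, 3.96 and 5.08 on the knockout arrays, against 6.61, 7.08, 6.55, 5.70 and 5.85 on the wild-type arrays, a difference of -2.01 (SE 0.34). Its knockout arrays lay around the intensity filter or under it, with a mean of 4.35 against 6.36 in wild type. The probe set passed the filter only through the wild-type arrays. Its place among the outlying probe sets and its direction therefore follow in part from the filter. A dimmer probe set, 4934068, left out by the filter, read 3.18, 3.84, 3.27, 2.88 and 3.09 in knockout, against 5.61, 5.40, 5.68, 4.75 and 3.06 in wild type. Wild-type array 5 there fell among the knockout arrays and the other 4 lay above them. The remaining 38 probe sets above the filter had a median difference of 0.05, and the gene level was 6.74 ± 0.10 in knockout and 6.76 ± 0.30 in wild type. None of the 11 other phosphoinositide 3-kinase genes passed by limma or had an unadjusted p under 0.05, and 8 were higher, with a median of 0.04. Pik3c2b, of the same class, was at -0.10, Pik3cd at 0.08 and the regulatory subunit Pik3r2 at 0.10, with limma adjusted p-values of 0.841 or more.

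Plekhb1, the gene with 2 distant starts shown above, differed at 1 of 15 probe sets above the filter. Probe set 5563079 read 8.16, 7.39, 9.06, 8.30 and 8.75 on the knockout arrays, against 11.04, 11.36, 10.94, 10.77 and 10.48 on the wild-type arrays, a difference of -2.59 (SE 0.28), or 6.00-fold. The gap between the nearest arrays of the genotypes was over 1 unit. The remaining 14 overlapped between genotypes and had differences from -0.53 to 0.40 (median -0.17). Their mean was 9.38, 9.26, 9.33, 9.20 and 9.27 in knockout, against 9.67, 9.69, 9.49, 9.23 and 9.06 in wild type. Wild-type arrays 4 and 5 were the lowest of their group in this mean. Plekhb1 is strong in oligodendrocytes, and the oligodendrocyte markers (6 of 7 measured, all 6 lower in the knockout) had a mean of 8.58, 8.53, 8.48, 8.14 and 8.44 in knockout, against 9.11, 8.98, 8.71, 8.53 and 8.10 in wild type. The same 2 wild-type arrays were lowest there, and the part of these cells in the Plekhb1 values was not tested. The related Plekhb2 differed by -0.04 (SE 0.09, limma adjusted p = 0.951).

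**Figure D3:**
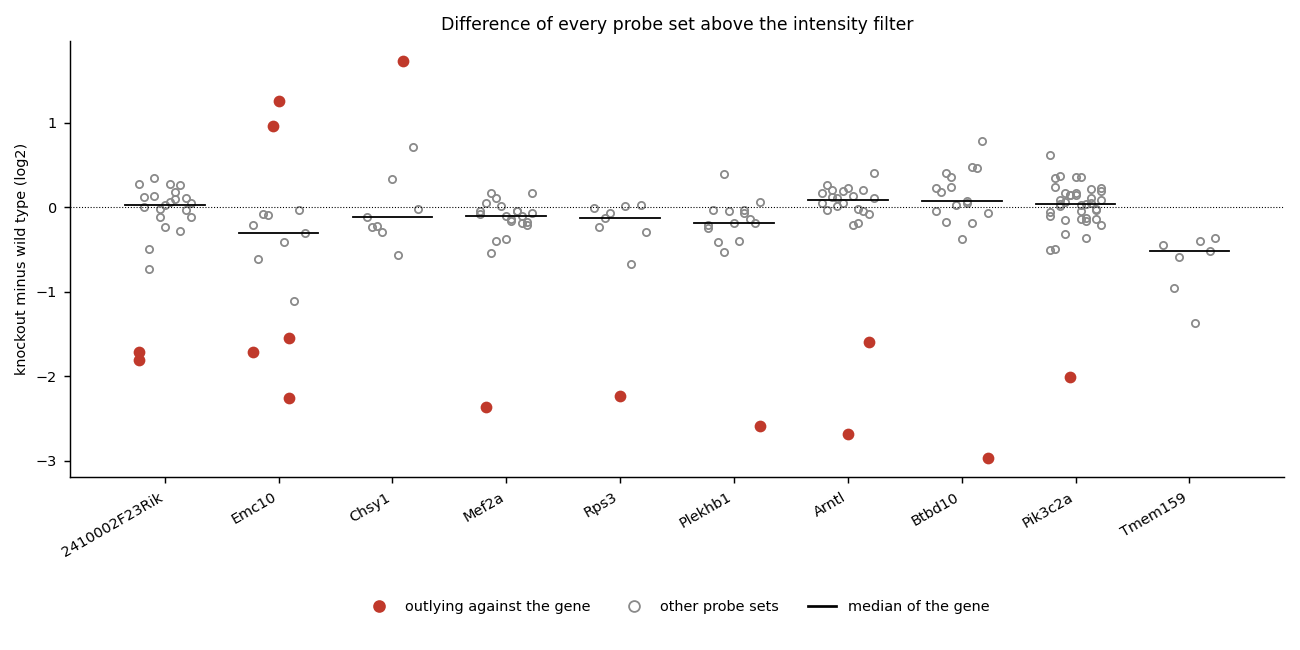
Knockout minus wild-type difference on the log2 scale (vertical axis) of each of the 175 probe sets above the intensity filter, by gene in chromosome order. Red points are the 15 outlying probe sets, open points the others, and black lines the median of each gene. Outside Emc10 and Tmem159 the open points gather around 0, while all 7 points of Tmem159 lie below it.

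Chsy1 was the only gene whose leading probe set was higher in the knockout. Probe set 4525775 read 8.75, 8.48, 9.00, 8.26 and 8.57 on the knockout arrays, against 7.32, 6.99, 7.07, 6.95 and 6.07 on the wild-type arrays, a difference of 1.74 (SE 0.23), or 3.33-fold. Probe sets 5191990 and 5554320 were higher too, by 0.72 (SE 0.21) and 0.33 (SE 0.14), each without overlap between genotypes. The other 6 were all lower on average, by up to -0.57, and all overlapped. The gene level of Chsy1, which averages over both kinds, was 8.32 ± 0.13 in knockout and 8.18 ± 0.19 in wild type. Without the leading probe set it was 8.29 ± 0.16 in knockout and 8.34 ± 0.17 in wild type. In the synthesis of chondroitin sulfate all 20 other genes were measured, and none passed by limma or had an unadjusted p under 0.05. They had 11 lower, 9 higher and a median of -0.005. The sulfotransferases Chst3 and Chst13 were at -0.27 (SE 0.13) and -0.24 (SE 0.11), both with a limma adjusted p of 0.716, and B3galt6, an enzyme of the linker to the core protein, was at -0.20 (SE 0.11).

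Tmem159 differed as a whole gene. All 7 probe sets were lower in the knockout, by -1.37 to -0.36. The leading one, 5074279, read 7.00, 6.55, 7.16, 7.03 and 7.05 on the knockout arrays, against 8.49, 8.48, 8.50, 7.88 and 8.27 on the wild-type arrays. Its difference was -1.37 (SE 0.18), but its gap to the rest of the gene differed by only -0.81, since the rest was lower too. Probe set 4986104 was also without overlap, at 6.83 ± 0.21 in knockout and 7.42 ± 0.17 in wild type. In all remaining probe sets of the gene the genotypes overlapped. The gene level read 6.11, 6.07, 6.11, 6.25 and 6.03 in knockout, against 6.73, 6.98, 6.89, 6.53 and 6.76 in wild type. Without the leading probe set the gene still did not overlap, at 5.97 ± 0.10 in knockout and 6.52 ± 0.17 in wild type. It was the only one of the 10 genes of which this held, while 3 of the 10 did not overlap with all probe sets counted (1.55% of all genes). Among 14 measured lipid droplet genes none passed by limma (3 with an unadjusted p under 0.05, or 21.4%, against 6.98% of all genes), with 9 lower, 5 higher and a median of -0.04. Seipin itself, Bscl2, was at 0.08 (named after its value was seen). The droplet proteins Cideb and Plin1 were each at -0.28 (SE 0.10) and Plin2 at -0.23 (SE 0.09), all with a limma adjusted p of 0.693.

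**Figure D4:**
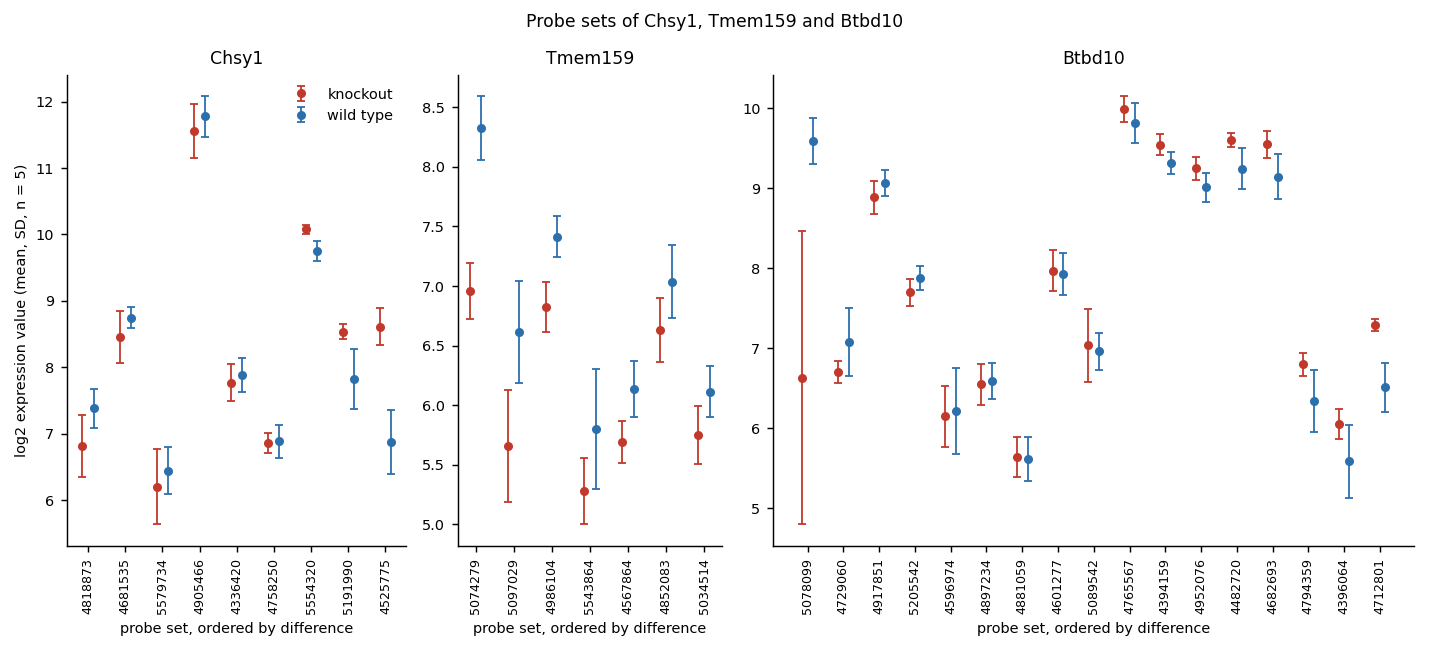
Mean log2 expression value (vertical axis, bars are SD over 5 arrays) of every probe set above the intensity filter of Chsy1 (9), Tmem159 (7) and Btbd10 (17), in knockout (red, left of each pair) and wild type (blue), ordered by difference. Chsy1 differs upward at its last probe sets, Tmem159 is lower throughout, and the long bar of the first Btbd10 probe set comes from knockout array 2 at 3.35.

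In 2410002F23Rik a pair of probe sets was outlying and the other 21 above the filter were not. Probe set 5529901 read 6.55, 6.14, 6.14, 5.89 and 5.35 on the knockout arrays, against 7.92, 7.77, 8.12, 7.75 and 7.53 on the wild-type arrays, a difference of -1.80 (SE 0.21). Probe set 4377603 read 5.65, 5.55, 5.80, 5.30 and 5.68 in knockout, against 7.92, 7.29, 7.36, 6.95 and 7.04 in wild type, a difference of -1.72 (SE 0.19). Both were separated by about 1 unit between the nearest arrays. Without the pair the gene differed by -0.005. Probe set 5255068 was higher without overlap, at 7.44 ± 0.12 in knockout and 7.09 ± 0.12 in wild type, and a dim probe set left out by the filter, 4403271, averaged 4.28 ± 0.64 in knockout and 5.48 ± 0.54 in wild type with overlap.

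Over the 10 genes, the 165 probe sets that were not leading had a median difference of -0.03, against 0.02 over all named probe sets, and 91 of them were lower. Between genotypes 16 of the 165 (9.70%) did not overlap, against 1.06% of all named probe sets, and 7 of the 16 were in Emc10. Outlying probe sets made up 6 of the 16, and the genes had been picked for such probe sets, so nothing is read from this excess. At the gene level the difference shrank without the leading probe set in 8 of the 10 genes. This is no separate result, since leaving out the probe set farthest from the rest must draw the mean toward the rest. The exceptions were Btbd10, at 0.15 without it and -0.03 with it, and Pik3c2a, at 0.04 and -0.02.

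All 10 genes lie on the same side of Klk8 in the order of the 1285 chromosome 7 genes with a gene level. Counted in such genes, 2410002F23Rik is 11 from Klk8, Emc10 20, Chsy1 178, Mef2a 186, Rps3 349, Plekhb1 371, Arntl 472, Btbd10 473, Pik3c2a 489 and Tmem159 517. From one gene to the next in this order there were 8, 157, 7, 162, 21, 100, 0, 15 and 27 measured genes in between.

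Their neighbours, the 5 measured genes on each side of each, came to 85 genes. By limma none passed, and 12 (14.1%) had an unadjusted p under 0.05, against 6.98% of all genes. Of the 85 genes 54 were lower (50.7% of all genes were), with a median difference of -0.04. Neighbours share the arrays too, so this count by direction is a description. In 2 the gene levels did not overlap (2.35%), near the share over all genes (1.55%). These were Snrpa1, a spliceosome protein near Chsy1, at -0.46 (SE 0.09, limma adjusted p = 0.213), and Josd2, a deubiquitinase next to Emc10, at -0.36 (SE 0.08, limma adjusted p = 0.341). Eri2, an exonuclease gene near Tmem159, was at -0.47 (SE 0.12, limma adjusted p = 0.489), and Mical2 and Micalcl, near Arntl, at 0.23 (SE 0.08) and 0.30 (SE 0.11), both with an adjusted p of 0.693.

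Outlying probe sets were found in 4 of the 85 neighbours (4.71%), against 0.305% of all genes, and all 4 were lower in the knockout. Igf1r, the receptor of insulin-like growth factor 1, had a probe set at 7.83, 8.01, 7.75, 7.77 and 7.71 on the knockout arrays, against 8.80, 8.73, 9.18, 8.63 and 8.86 on the wild-type arrays. This difference of -1.03 (SE 0.15) did not pass among all probe sets (limma adjusted p = 0.15). Thumpd1, near Tmem159, averaged 7.90 ± 0.28 in knockout and 9.03 ± 0.33 in wild type at its probe set (limma adjusted p = 0.347). The transcription factor Tead1, near Arntl, averaged 5.59 ± 0.46 in knockout and 6.70 ± 0.40 in wild type (limma adjusted p = 0.658). Lrrc28, near Mef2a, averaged 4.54 ± 0.28 in knockout and 5.59 ± 0.72 in wild type (limma adjusted p = 0.77). The Lrrc28 probe set passed the intensity filter only through wild-type arrays 1 to 3, since all 5 knockout arrays and wild-type arrays 4 and 5, at 4.82 and 4.88, lay below 4.94, so its count among the 4 and its direction follow in part from the filter.

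Chromosome 7 held 26 of the 57 outlying probe sets, 15 of them in the 10 genes. In its other genes 11 of 16992 probe sets were outlying (0.0647%), 5 below and 6 above the rest of their gene. Among those above, a probe set of Hbb-b1 was itself lower in the knockout, by -1.04, while the rest of its gene was lower still. On the other chromosomes 31 of 221168 were outlying (0.014%), 14 below and 17 above the rest of their gene. These shares are descriptions, since probe sets of a chromosome are not independent.

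**Figure D5:**
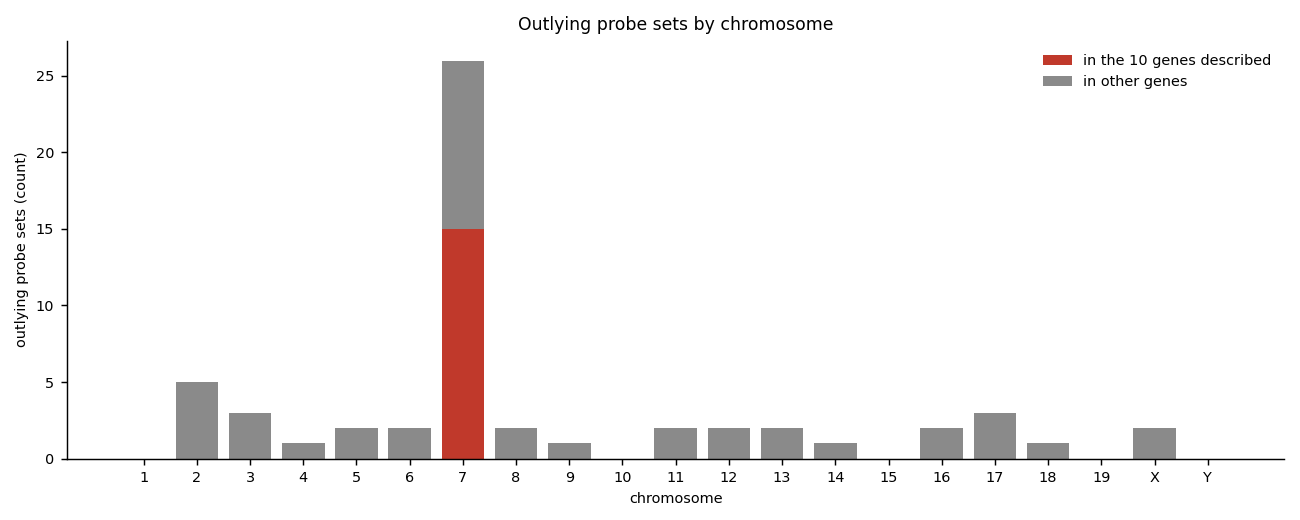
Number of outlying probe sets (vertical axis, count) on each chromosome, those in the 10 genes described in red and those in other genes in grey. Chromosome 7 has 26 and no other chromosome more than 5.

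The probe sets of other genes most like the leading ones were sought by Pearson's r with the mean of the 10 centred leading probe sets over the 10 arrays. The 10 most alike had r of 0.939 to 0.969. Of them 6 were on chromosome 7, 2 of these in Hbb-b1, while that chromosome held 17167 of the 238335 named probe sets. All 10 were lower in the knockout, which the search itself favours, since 9 of the 10 leading probe sets were lower. The points share the arrays and the genotype difference, so these values only describe likeness. Gde1 led with r = 0.969, a probe set at 8.56 ± 0.13 in knockout and 9.39 ± 0.20 in wild type, followed by Dlg2, a postsynaptic scaffold, at 10.33 ± 0.15 and 11.10 ± 0.16. Next were Unc5cl, Sox6 and 2 probe sets of Hbb-b1, which differed by -2.18 and -2.21. A330023F24Rik, Synpr, Akr1c6 and Slco2b1 completed the 10, at -0.29, -0.46, -1.51 and -0.28. Of the 10 only that of Akr1c6 was outlying against its gene. The Akr1c6 probe set averaged 4.23 ± 0.41 in knockout, below the intensity filter, and 5.74 ± 0.16 in wild type. It passed the filter only through the wild-type arrays, so its outlying call and direction follow in part from the filter.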

How the data were processed

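RNA of amygdala was measured on GeneChip Mouse Exon arrays, 5 per genotype. Per the submitters' processing notes, the authors made the deposited log2 values with RMA in Affymetrix Expression Console, whose version, like the genome build, is not given in the sources used here. There were 1256831 probe sets, 318760 of them with 1 gene by the platform annotation and 6684 with several. Symbols were updated through the RefSeq gene table (GRCm38.p6), whose gene order was used without coordinates.

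Probe sets with a mean above 4.94 (628415) were tested with limma version 3.58.1 in R version 4.3.3 (lmFit, eBayes, no covariates), and so were gene levels, means over at least 3 singly named probe sets that passed, for 16367 genes with 238335 probe sets. Exon usage was tested with diffSplice. Adjusted p-values are Benjamini-Hochberg over all features tested, two-sided, at 0.05. Scripts were tested on simulated data. Alternatives were another normalization, filter, variance prior and gene summary, the replicate number as a block, and each array left out.

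The genes and the 9 lists of related genes were chosen with earlier results of these data known. Named besides the 10 genes were, of each list, up to 3 genes of smallest p, of the neighbours the 5 of smallest p and those with an outlying probe set, and the 10 probe sets most alike. The number of arrays limits the precision, and no label says whether the pools were extracted separately, so p-values measure the spread between arrays.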

Additional observations from a re-analysis of the deposited data

Results flagged for a closer look

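Values of the 10 genes that stood far from the other arrays of their genotype were sought over 40 groups of 5 arrays (leading probe set and gene level, each genotype), where chance flags about 1 in 20. There were 5, all on knockout array 2. The leading probe set of Btbd10 read 3.35 there, against 7.36 to 7.57 on the other knockout arrays, and the gene level of Btbd10, which includes it, 7.50 against 7.77 to 7.80. The leading probe set of Rps3 read 6.66, against 7.23 to 7.45, and that of Tmem159 6.55, against 7.00 to 7.16. The gene level of Chsy1 was the only one that stood above its group, at 8.55 against 8.25 to 8.29. Their cause was not tested.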

How the results depend on the processing

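The gap of the leading probe set to the rest of its gene was recomputed 179 times. Its sign is no measure of stability, since the gaps do not overlap between genotypes and leaving out arrays cannot turn it, and centring arrays or the block cannot move a gap within an array. It moved by 1 SD between arrays or more in 2 values, both in Emc10, at -1.93 with the mean of the other probe sets and -1.95 with probe sets centred first (chosen after seeing the data), against -2.19. With 1 array left out, the gap of Btbd10 ranged from -3.22 to -2.15, that of Arntl from -2.79 to -2.39, of Chsy1 from 1.33 to 1.67 and of Tmem159 from -0.87 to -0.71. The stricter filter (75th percentile, 6.50) gave no value for Pik3c2a, whose leading probe set fell below it. No neighbour and no listed gene passed under any setting run.

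The counts over all probe sets were not firm. The number of probe sets that passed was 15, and it was 3 after quantile normalization again, 2 without a filter, 66 with the stricter filter, 102 with a trended and robust prior and 3 without wild-type arrays 4 and 5 (chosen after seeing the data). Leaving out 1 array gave 2 to 9. Genes that passed were 4, and 2 to 6 without 1 array (2 each without knockout array 2, 3 or 5). Exon usage passed in 276 genes, in 623 without a filter, 94 with the stricter one, 453 without wild-type arrays 4 and 5, 173 (without knockout array 1) to 331 with 1 array left out, and 6 when probe sets had variances of their own. The cause was not tested.

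The labels give nothing that arrays of one replicate number share. Their deviations correlated over genes at 0.24 to 0.41 in 4 of the 5 pairs and at 0.08 in pair 2, and 7 of 10 arrays correlated best with their own number, a hint of pairing from the data and not from the design. The fit without the block was kept because pair 2 lacked such a correlation. With the replicate block 0 probe sets, 3 genes and 448 genes by exon usage passed.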

Other observations

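Outside chromosome 7, 31 probe sets were outlying against their gene. The farthest below its gene was in Itgb1bp2 on the X chromosome, known from muscle, with a difference of -1.78. Next were Akr1c6 on chromosome 13 at -1.51 and Mtmr11 on chromosome 3 at -1.48. This Akr1c6 probe set averaged 4.23 in knockout, below the intensity filter, so its call and direction follow in part from the filter. The farthest above were in Myo19, a myosin of mitochondria, at 1.52, Ell, a transcription elongation factor, at 1.43, and Bcas1, a gene of young oligodendrocytes, at 1.21. On chromosome 7, outside the 10 genes and their neighbours, Etfb had one at -1.63, Ube3a, a ubiquitin ligase imprinted in neurons, one at 1.41, Prcp one at 1.13 and Sergef one at 1.09. These genes were chosen after their values were seen, and no test was run on them here.

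Across the 10 leading probe sets, knockout array 2 was the lowest knockout array in 6 and the highest in none. Among the wild-type arrays, array 4 was the lowest in 6 and array 5 in 4, so that 1 of the arrays that stood apart on the first component was the lowest in every leading probe set. Wild-type arrays 2 and 3 were the highest in 4 each.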
